A study of Caenorhabditis elegans with 68 samples.

Results

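The cytosolic ribosomal protein genes of the nematode Caenorhabditis elegans were followed across 14 groups of newly hatched first-stage (L1) larvae profiled by RNA sequencing. Members were chosen by name alone, as genes called rpl or rps followed by a number, or rla-0, rla-1 or rla-2, and no measured value entered the choice. There were 79 members among 30470 genes in the table, all typed as protein-coding: 45 rpl genes of the large subunit, 31 rps genes of the small subunit and 3 rla genes of the stalk. The larvae came from mothers kept at 50 or 300 mM NaCl, and 48 libraries were used. One set held the wild type, called WT, and the mutant mir-85(n4117) of strain MT12999, with 2 libraries per group; mir-85 encodes a microRNA. A second set, of strain MHE324, held progeny of mothers heterozygous for this allele over the mIn1 balancer, which carries mIs14 and dpy-10(e128): F1het larvae kept the balancer and F1KO larvae were homozygous, with 3 libraries per group. Another set held mir-85(gcp109), strain MHE339, with the 3p part of mir-85 deleted and 4 libraries per group. The last held the N2 wild type and the hrg-1(gcp100) allele of strain MHE310, a mutated mir-85 seed site in a haem transporter gene, with 5 libraries per group. Within a set each allele was carried by a single strain, so allele and strain background cannot be told apart. Below, F1het and F1KO are counted as 2 of 7 strains, although both are progeny of MHE324. All larvae were hatched in synchrony and not starved.

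Cytosolic ribosomes make the proteins encoded by the nucleus, and most of their proteins are present in equal number. The small subunit decodes the messenger RNA, the large subunit joins the amino acids, and the acidic stalk of rla proteins recruits the elongation factors. Their messenger RNAs are among the most abundant of growing animals. Most are encoded by a single gene in the worm, but a few have a paralogue, and rpl-11.1 is known as the germline copy of rpl-11.2, which serves the soma.

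Levels are TPM, a length-normalised share of the transcripts of a library, and the sequencing depth behind them is unknown. TPM summed to between 953862 and 999109 per library, and lines not typed as protein-coding took between 106276 and 381419 TPM of this. The values of N2 and gcp100 stood up to 3 lines away from their gene names in the table, and all 79 members were displaced by 2 lines. Moved back, the means of the members in this set correlated with their means in the other 28 libraries at r = 0.990, against -0.0894 as deposited and 0.0209 or -0.0232 when moved by 1 line less or more. Lists of neuron, intestine and body wall muscle markers were above 1 TPM in at least 24 libraries for 10 of 10, 10 of 10 and 8 of 8 genes. The same held for 6 of 8 pharynx and 3 of 10 hypodermis markers. A list of 22 germline and maternal genes summed to between 95.6 and 560.1 TPM in 43 libraries, and a list of 47 sperm genes to between 2.71 and 249.01. The other 5 libraries, N2 replicates 3 and 5 and gcp100 replicates 1, 3 and 5 at 300 mM, stood apart by more than 1000 TPM of sperm genes or fewer than 13000 genes above 1 TPM, limits set after the values were seen. Results that rest on them are also given without them, which leaves 3 N2 and 2 gcp100 libraries at 300 mM, the latter replicates 2 and 4. In N2 replicate 3 the germline list reached 5600 TPM and the sperm list 5246 TPM, and in gcp100 replicate 1 they reached 3346 and 1650 TPM. The neuron list summed to 540 TPM in that N2 library and the body wall muscle list to 3974 TPM. In N2 replicates 1, 2 and 4 at 300 mM they summed to 2155 to 2721 and 10268 to 14072 TPM. In gcp100 replicate 1 they were at 1677 and 10971 TPM. The stage of the animals in these libraries rests on the labels and was not tested.

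The members formed a narrow band of very high levels with a short tail below it. Leaving out rpl-37, rpl-42 and rpl-11.1, the means over the 14 groups ran from 256 to 3864 TPM, and 70 of these 76 members lay between 1000 and 4000 TPM. The highest were rps-7 and rps-16 of the small subunit, at 3864 and 3830 TPM, followed by rpl-7, rpl-38 and rpl-3 of the large subunit, at 3732, 3491 and 3455 TPM. The median was 2178 TPM over the 31 rps genes and 2035 TPM over 42 rpl genes without the same 3, so the subunits had similar levels per gene. Of the stalk genes, rla-0 averaged 3065 TPM and rla-1 2896 TPM, while rla-2 averaged 1040 TPM.

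**Figure D1:**
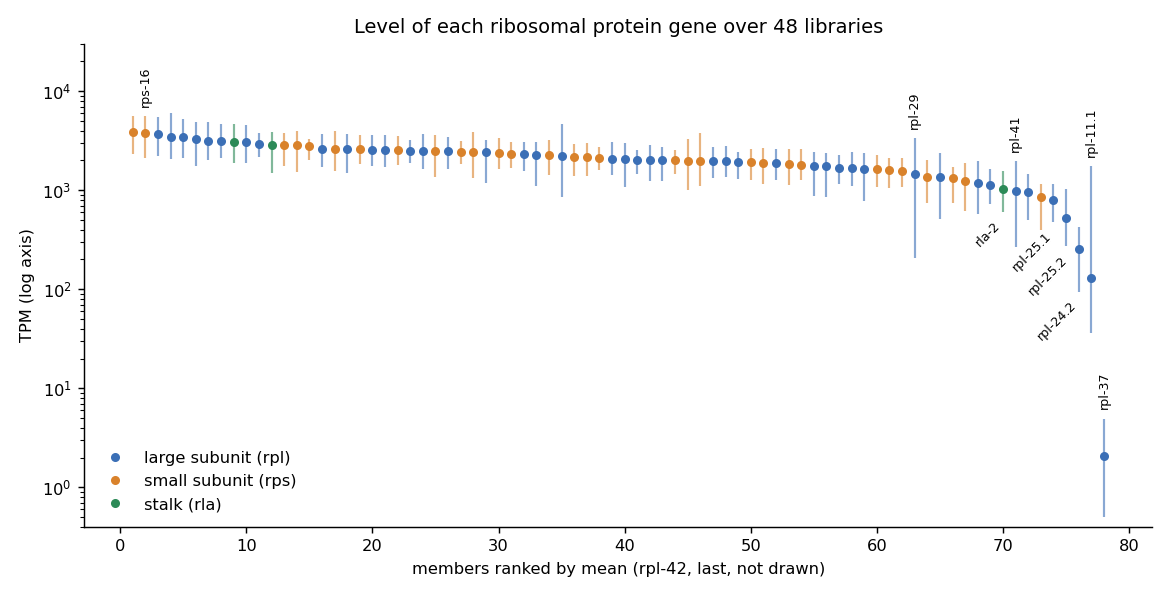
Level of 78 members ranked by their mean TPM over the 14 groups (log axis), with points for the means and bars from the lowest to the highest of 48 libraries (bars that reach 0 end at 0.5). Most members lie between 1000 and 4000 TPM, rpl-11.1 has the bar with the widest ratio above 10 TPM, and rpl-37 lies near 2 TPM.

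The tail was made of paralogues and of genes that were hardly detected. The 5 lowest means were those of rpl-42 at 0.164 TPM, rpl-37 at 2.05 TPM, rpl-11.1 at 129 TPM, rpl-24.2 at 256 TPM and rpl-25.2 at 527 TPM. Each of the paralogues stood below its partner: rpl-11.2 averaged 1738 TPM, rpl-24.1 averaged 1183 TPM and rpl-25.1 averaged 800 TPM. The name rpl-24.2 covers a relative of rpl-24.1 that is known from yeast as a factor of ribosome assembly, so the pair need not make the same ribosome component. The gene named rpl-37 in the table is called rpl-37.2 in RefSeq, and the abundant RefSeq rpl-37.1 is listed as W01D2.1, outside the naming rule, with set medians between 204 and 800 TPM. Likewise the table's rpl-41 carries the name rpl-36.A in the WBcel235 annotation, and F54D7.7, which RefSeq calls rpl-41.2, had set medians between 2097 and 3385 TPM. Reads of near-identical copies could be split between genes by the counting, which is not described, so the levels of such pairs are uncertain. All members but rpl-42 passed the filter of 1 TPM, which leaves 78 in each test.

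Summed over the 79 members, the ribosomal proteins took 16.2% ± 2.68 of all TPM (SD, n = 48 libraries), from 11.8% to 22.5%. The F1het and F1KO larvae had the highest sums. In F1het the sum was 178100 ± 22342 TPM at 50 mM and 209617 ± 13197 TPM at 300 mM (SD, n = 3), and in F1KO it was 174085 ± 5155 and 196303 ± 5872 TPM (n = 3). The 3 F1KO libraries at 300 mM, at 190401 to 202143 TPM, lay above the 3 at 50 mM, at 169799 to 179805 TPM, while the F1het libraries overlapped, since replicate 2 at 50 mM held 202934 TPM. F1het at 300 mM was the group with the highest mean for 65 of 79 members.

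In the other sets the sums were lower and the salt groups overlapped. WT held 152574 ± 11121 TPM at 50 mM and 161849 ± 7714 at 300 mM (n = 2), and mir-85(n4117) 164762 ± 15825 and 173370 ± 22149 (n = 2). The gcp109 larvae held 145486 ± 12365 and 150651 ± 16450 TPM (n = 4). N2 held 154082 ± 13689 and 142112 ± 15532 TPM (n = 5), and gcp100 148247 ± 20478 and 136666 ± 23568 TPM (n = 5). The group gcp100 at 300 mM had the lowest mean for 42 of 79 members. Sets differ in strain and in experiment, which cannot be told apart. The ratio of small-subunit to large-subunit TPM, stalk included, ranged from 0.664 to 0.769 over the 48 libraries, with group means between 0.695 and 0.718.

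Maternal salt was compared within each strain on log2(TPM + 1), a scale on which low genes appear to change less than they do, with limma and Benjamini-Hochberg adjustment over all genes tested (threshold 0.05). Positive values are higher at 300 mM. In F1het the members had a median difference of 0.27 against -0.03 for all genes, and 72 of 78 were above 0, where 45.1% of all genes were. In F1KO the median was 0.19 against 0.03, with 69 of 78 members above 0 and 54.8% of all genes. At an unadjusted p under 0.05 there were 40 members in F1het and 23 in F1KO, against 11.4% and 11.8% of all genes. The 2 salt groups did not overlap for 41 members in F1het and for 44 in F1KO, where 13.8% and 19.4% of all genes did not. After adjustment 0 members were called in F1het (background 0.00647% of genes) and 1 in F1KO (0.0259%), which was rpl-11.1. The members were read from the same libraries, so such counts do not stand for that many separate observations. Markers of other tissues also differed by salt, and their part in the members' differences was not tested. In F1het 2 of 10 intestine genes were above 0 (median -0.36) and 1 of 4 tested hypodermis genes (-0.98), and in F1KO 8 of 8 body wall muscle genes (0.33). In N2 0 of 10 neuron genes (-0.88) and 0 of 8 body wall muscle genes (-0.54) were above 0. These N2 values include replicates 3 and 5 at 300 mM, where the muscle list summed to 3974 and 7673 TPM. In replicates 1, 2 and 4 it summed to 10268 to 14072 TPM, against 9347.9 to 14240.5 at 50 mM. The neuron list was at 540 and 1571 TPM in replicates 3 and 5 and at 2155 to 2721 in the others, against 2515 to 3128 at 50 mM.

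Besides rpl-11.1, the members with the smallest p in these larvae included genes of the stalk and of both subunits. In F1het rla-0, the stalk base, went from 3178 ± 282 to 4131 ± 256 TPM, a log2 difference of 0.38 (SE 0.12) with an adjusted p of 0.291. In F1KO rps-2, of the small subunit, had a difference of 0.43 (SE 0.12, adjusted p = 0.258) and rpl-4, of the large subunit, one of 0.39 (SE 0.12, adjusted p = 0.301). The salt groups did not overlap for any of these genes.

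**Figure D2:**
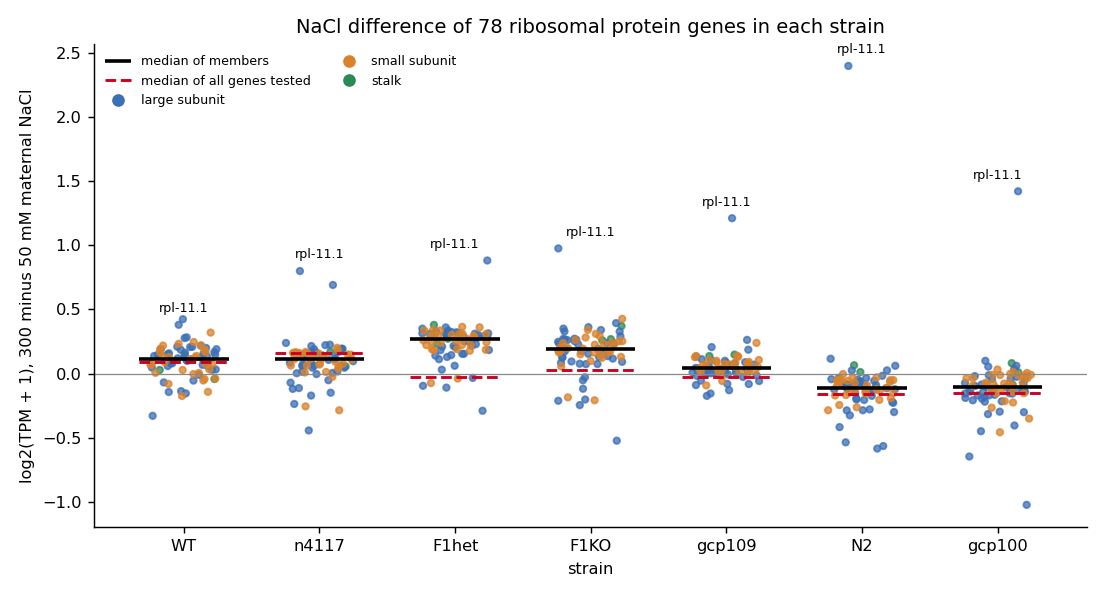
Difference in log2(TPM + 1) between 300 and 50 mM maternal NaCl for 78 members in each of 7 strains, with 1 point per gene, coloured by subunit. Black lines mark the median of the members and dashed lines the median of all genes tested; the 2 lines stand farthest apart in F1het (0.27 and -0.03), and rpl-11.1 is the highest point in 6 of the strains.

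In the remaining strains, with all libraries, the members' median lay nearer to that of all genes. It was 0.12 in WT (all genes 0.09), with 63 of 78 members (80.8%) above 0 against 59.8% of all genes. In n4117 it was 0.11 (all genes 0.16), with 66 members (84.6%) above 0 against 66%. In gcp109 it was 0.04 (all genes -0.02), with 59 members (75.6%) above 0 against 46.6%. In N2 it was -0.11 (all genes -0.16) and in gcp100 -0.10 (all genes -0.15). Above 0 were 7 and 10 members (8.97% and 12.8%), against 40.9% and 38% of all genes. These splits moved with the scaling, in 2 rescalings whose factors were computed without the members. Rescaled to an equal protein-coding total or by median ratios, 32 or 13 members were above 0 in n4117, with medians of -0.02 and -0.06. There were 26 or 35 in N2 and 25 or 35 in gcp100, while 72 in F1het and 69 in F1KO were above 0 under both. No member was called by limma in any of these, where the background was 0% in WT, 0.0468% in n4117, 1.35% in gcp109, 4.3% in N2 and 0.622% in gcp100. Unadjusted p under 0.05 was reached by 0, 0, 1, 2 and 1 members in the same order, against 9.31%, 12.2%, 14.9%, 24.4% and 13.1% of all genes. The salt groups did not overlap for 29 members in WT and 17 in n4117, against 40.7% and 44.2% of all genes with 2 libraries a group, and for 0 members in the other 3 strains, against 9.46%, 9.77% and 4.29%. Without the 5 libraries that stood apart, the median was -0.09 in N2 (all genes -0.03), with 10 members above 0. In gcp100 it was then -0.22 (all genes 0.03), with 2 members above 0, farther from all genes than in F1KO. That gcp100 value rests on 2 libraries at 300 mM, replicates 2 and 4. Replicate 2 had a shifted profile of the members, described below.

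Both subunits held members of each sign in most strains. Of 44 large-subunit members, 37, 35, 40, 37, 29, 5 and 5 were above 0 in WT, n4117, F1het, F1KO, gcp109, N2 and gcp100. Of 31 small-subunit members, 24, 28, 29, 29, 27, 0 and 3 were, so that neither subunit had the larger share throughout. Members with a positive difference in all 7 strains were rla-0, rla-2, rpl-11.1 and rpl-28, and those with a negative one in all 7 were rpl-29, rpl-41 and rps-17. These 7 kept their sign under both rescalings, except rla-2 with median ratios. In mean TPM, however, rpl-28 was higher at 300 mM in 5 of 7 strains and rpl-29 in 1 of 7. The share of all genes with 1 sign in all 7 strains was not computed, so the counts of such members have no background. The number above 0 in all 7 strains grew from 4 to 10 with an equal protein-coding total, adding rpl-4, rpl-5, rpl-7A, rpl-9, rps-10 and rps-4, and to 7 with median ratios, adding rpl-2, rpl-4, rpl-5 and rps-18. Without a replicate block, none of these but rpl-11.1 was called in a strain: the smallest adjusted p was 0.291 for rla-0, 0.379 for rla-2, 0.571 for rpl-28, 0.519 for rpl-29, 0.747 for rpl-41 and 0.338 for rps-17. Of the stalk genes, rla-2 stood out by set rather than by salt, with group means of 1090 to 1521 TPM in WT, n4117, F1het and F1KO and of 707 to 811 TPM in gcp109, N2 and gcp100.

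The germline paralogue rpl-11.1 (WBGene00004422) lies on chromosome V (3585312 to 3586064, minus strand, WBcel235), and rpl-11.2 (WBGene00004423) on chromosome X (2241738 to 2242618, minus strand). Both encode ribosomal protein L11 of the large subunit. In WT rpl-11.1 was at 52.6 and 57 TPM at 50 mM and at 69.5 and 73.7 TPM at 300 mM. In n4117 it was at 83.3 and 56.1 TPM, then at 208.6 and 68.5 TPM, so that 1 library alone carried the higher mean.

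In F1het rpl-11.1 was at 55.7, 72.1 and 56.7 TPM at 50 mM and at 106.0, 110.2 and 124.7 TPM at 300 mM. In F1KO it was at 61.8, 56.3 and 48.5 TPM, then at 113.3, 107.1 and 108.6 TPM. In both genotypes every library at 300 mM was above every library at 50 mM. In gcp109 it was at 39.7, 39.7, 40.1 and 77.1 TPM at 50 mM and at 141.1, 71.1, 74.3 and 197.1 TPM at 300 mM, where replicate 4 at 50 mM lay above replicates 2 and 3 at 300 mM. Within each replicate number of gcp109, the library at 300 mM was above that at 50 mM.

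In N2 the level was 62.6, 52.8, 100.5, 41.3 and 42.8 TPM at 50 mM and 206.9, 140.4, 1773, 71.2 and 691.2 TPM at 300 mM. In gcp100 it was 59.5, 45, 83.7, 55.3 and 36 TPM at 50 mM and 953.1, 110.8, 112.2, 53.0 and 102.4 TPM at 300 mM. The salt groups of both strains overlapped through replicate 4 at 300 mM. The highest 3 values of the series were N2 replicates 3 and 5 and gcp100 replicate 1, all at 300 mM.

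**Figure D3:**
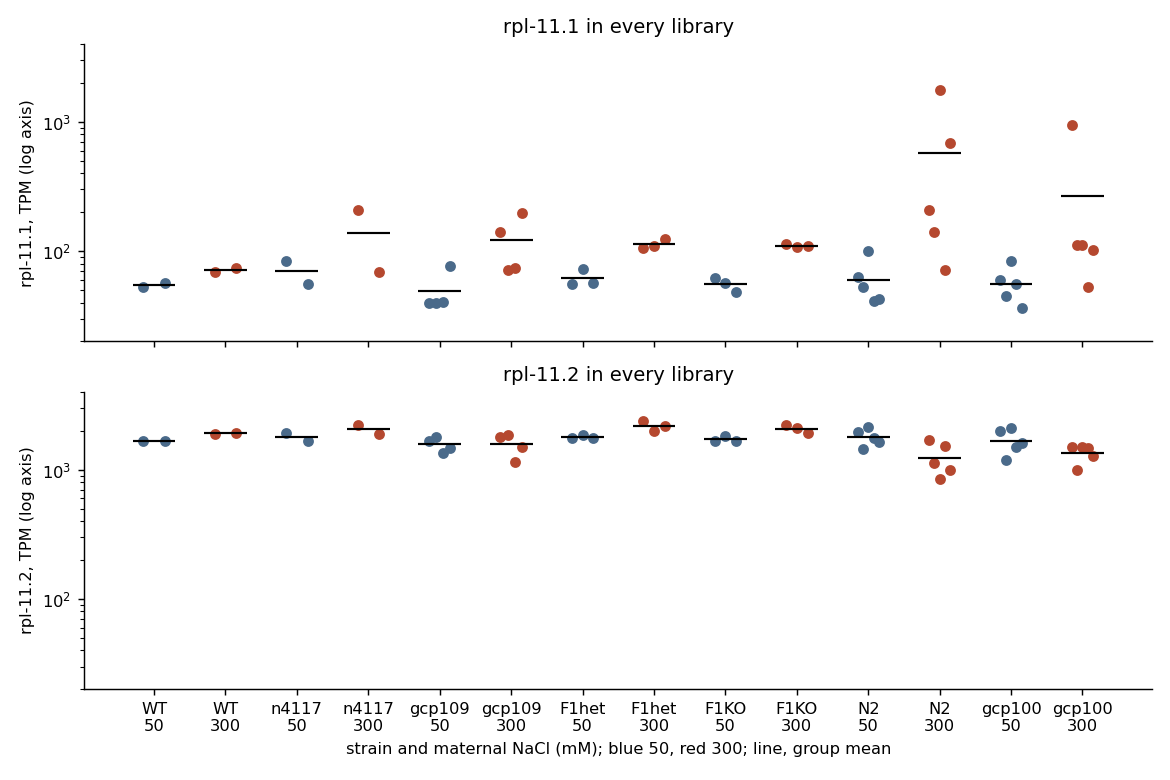
TPM (log axis) of rpl-11.1 and rpl-11.2 in each of 48 libraries, by strain and maternal NaCl (blue 50 mM, red 300 mM), with the group mean as a line. The mean of rpl-11.1 is higher at 300 mM in all 7 strains, and 3 libraries at 300 mM exceed 600 TPM; the mean of rpl-11.2 is lower at 300 mM in N2 and gcp100.

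The mean of rpl-11.1 was higher at 300 mM in 7 of 7 strains, where F1het and F1KO are progeny of 1 strain. Folds given here come from means of log2(TPM + 1). Mean TPM differed by more in N2 (60.0 and 577 TPM) and in gcp100 (55.9 and 266 TPM). By limma the difference was called in F1KO, where it was 1.97-fold (log2 0.98, SE 0.12, adjusted p = 0.0312). In F1het it was 1.84-fold (log2 0.88, SE 0.12, adjusted p = 0.0694), in gcp109 2.31-fold (log2 1.21, SE 0.36, adjusted p = 0.155), in N2 5.27-fold (log2 2.40, SE 0.72, adjusted p = 0.0626) and in gcp100 2.68-fold (log2 1.42, SE 0.72, adjusted p = 0.410). In WT and n4117 the log2 differences were 0.38 and 0.80, with adjusted p of 0.866 and 0.528. With the replicate number as a block over each set, the limma call extended to F1het (adjusted p = 0.0246) and gcp109 (adjusted p = 0.00843). It also extended to N2, as given below, and held in F1KO (adjusted p = 0.0200). Over all genes this block called 54 up and 116 down in F1het, 873 and 892 in gcp109 and 520 and 634 in N2. In F1KO it called 74 and 154. This block was shared by F1het and F1KO, although their same-numbered libraries were not taken as pairs. Across salt levels, deviations of same-numbered libraries from their group means correlated at r from 0.106 to 0.168 in F1het and 0.173 to 0.246 in F1KO. In gcp109 r was 0.493 to 0.547. The call in F1KO was lost without replicate 1, 2 or 3 at 300 mM (adjusted p = 0.150, 0.103 and 0.224) or replicate 2 at 50 mM (0.159), with log2 differences of 0.88 to 1.06 over all 6 omissions, and the range of F1het was 0.81 to 1.00. It was also lost with a pseudocount of 0.1 (adjusted p = 0.0617), under both rescalings (0.0538 and 0.0679) and with a block fitted within each strain (0.0544).

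Two-sided exact permutation tests of rpl-11.1 gave p = 0.1 in F1het and in F1KO, the smallest that 3 against 3 libraries allow, p = 0.0857 in gcp109, p = 0.0159 in N2 and p = 0.0317 in gcp100. None was below 0.238 after adjustment over 15 comparisons. Libraries were not paired by number in these tests, although same-numbered libraries of gcp109 deviated together. Without the 5 libraries that stood apart, the log2 difference was 1.15 in N2 (adjusted p = 0.0781) and 0.51 in gcp100 (adjusted p = 0.774).

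The somatic paralogue rpl-11.2 had smaller differences. Its mean was higher at 300 mM in F1het, from 1783 ± 53.4 to 2179 ± 191 TPM (SD, n = 3), and in F1KO, from 1714 ± 89.6 to 2065 ± 151 TPM, which is close to the median of the members there. In gcp109 it was 1569 ± 194 and 1569 ± 317 TPM. In N2 it was at 1946, 1441, 2135, 1772 and 1624 TPM at 50 mM and at 1688, 1131, 853.3, 1517 and 986.9 TPM at 300 mM, a log2 difference of -0.56 (SE 0.21, adjusted p = 0.127, exact permutation p = 0.0476 unadjusted and 0.476 adjusted over 15 comparisons). Without the libraries that stood apart this difference was -0.31 (adjusted p = 0.423). In gcp100 the log2 difference was -0.30, and none of the 15 comparisons of rpl-11.2 passed either test without a replicate block. With the block over the set, rpl-11.2 was called in N2, as given below.

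Germline and sperm transcripts moved with rpl-11.1 in several strains, and their part in its change was not tested. In bulk larvae, fewer or more cells of a type, less or more RNA per cell and a difference in stage cannot be told apart. In N2 the germline list went from 111 to 196 TPM at 50 mM to 194 to 5600 TPM at 300 mM, in gcp100 from 110 to 192 to 191 to 3346 TPM, and in gcp109 from 132 to 156 to 194 to 402 TPM. In WT it was at 95.6 and 139 TPM at 50 mM and at 196 and 160 TPM at 300 mM, and in n4117 at 133 and 99.7 TPM, then at 291 and 210 TPM, with no overlap in either strain. All 18 germline genes tested in these 2 strains were above 0. All 22 germline genes were above 1 TPM in at least 1 library, and none was at 0 throughout. In F1het and F1KO the summed germline list overlapped between salt levels, at 160 to 173 and 153 to 205 TPM in F1het and at 157 to 195 and 177 to 206 TPM in F1KO, and the sperm list stayed at 11.16 TPM or less. Of 16 germline genes tested, 11 were above 0 by salt in F1het and 10 in F1KO, against 45.1% and 54.8% of all genes. Only 1 of them was called, glh-1 in F1KO, which encodes a germ granule helicase. It rose there from a mean of 1.25 to 5.74 TPM (limma log2 1.58, adjusted p = 0.0136). This call was lost with a pseudocount of 0.1 and without any single replicate at 300 mM or replicate 2 at 50 mM.

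The 2 members on the X chromosome were rpl-11.2 and rpl-25.1, and each is paired with an autosomal copy. As a share of its pair, rpl-11.1 held 67.5% in N2 replicate 3, 41.2% in N2 replicate 5 and 38.8% in gcp100 replicate 1 at 300 mM, and between 2.18% and 11.6% in the other libraries. For the other pair, rpl-25.2 of chromosome I held 65.7% and 56.4% in the same 2 N2 libraries, between 31.9% and 46.7% in every other library, and 40.0% in gcp100 replicate 1. In N2 replicate 3 rpl-11.2 and rpl-25.1 had the lowest values of all members relative to replicates 1, 2 and 4 of that group, at log2 differences of -0.74 and -0.63. In the same library rpl-11.1 was at 3.79 and rpl-25.2 at 1.02 on that scale, and the median over 79 members was 0.20. The autosomal pair of rpl-24.1 and rpl-24.2, both on chromosome I, did not show this: rpl-24.2 held its lowest share of the series in N2 replicate 3 and its highest, 29.1%, in gcp100 replicate 3. These shares were picked out after the values were seen and carry no test.

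**Figure D4:**
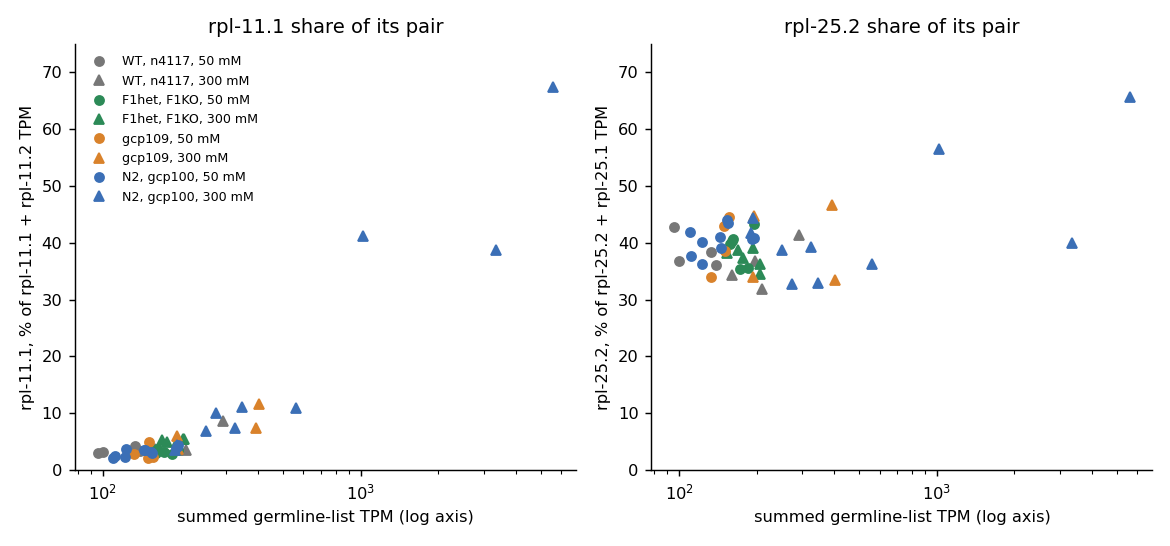
Share of rpl-11.1 in the TPM of rpl-11.1 plus rpl-11.2 (left) and of rpl-25.2 in that of rpl-25.2 plus rpl-25.1 (right), against the summed TPM of 22 germline genes (log axis), with 1 point per library (circles 50 mM, triangles 300 mM). N2 replicates 3 and 5 at 300 mM lead both panels, at 67.5% and 41.2% on the left and at 65.7% and 56.4% on the right.

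By salt, limma called none of the rpl-24 and rpl-25 genes. The largest differences were those of rpl-25.1 in WT, from 655 ± 117 to 875 ± 106 TPM (SD, n = 2; log2 0.42, SE 0.22, adjusted p = 0.616), and of rpl-24.2 in N2, from 243 ± 66.8 to 182 ± 49.5 TPM (SD, n = 5; log2 -0.42, SE 0.32, adjusted p = 0.414). The level of rpl-24.2 also differed by set, with group means of 333 to 373 TPM in F1het and F1KO and of 182 to 250 TPM elsewhere.

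Loss of mir-85 or of its site in hrg-1 was compared at each salt level, and 0 members were called by limma in any of 8 comparisons. Backgrounds were 0.0134% and 0.02% for n4117 against WT at 50 and 300 mM, 0.0194% and 0.0259% for F1KO against F1het, 0% and 0% for gcp100 against N2, and 0.0122% and 1.45% for gcp109 against N2. The gcp100 and gcp109 comparisons share the N2 libraries, and gcp109 and N2 also differ in set. At an unadjusted p under 0.05 were 1.32% and 2.2%, 3.14% and 5.66%, 0.334% and 5.76%, and 1.04% and 17.7% of all genes in the same order. Of the members there was 1 in all 8, rpl-11.1 in gcp109 against N2 at 300 mM, at 121 ± 60.2 against 577 ± 712 TPM (log2 -1.45, SE 0.70, adjusted p = 0.278). This difference was -0.21 (adjusted p = 0.912) without the libraries that stood apart.

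The members had small shifts of 1 sign in several genotype comparisons. In n4117 against WT the median was 0.10 at 50 mM, with 74 of 78 above 0 (all genes -0.05 and 38.3%), and 0.09 at 300 mM, with 69 above 0 (all genes 0.03 and 54.3%). With single libraries left out, this median ranged from 0.003 to 0.22 at 50 mM and from -0.04 to 0.21 at 300 mM. In F1KO against F1het it was -0.03 at 50 mM, with 26 above 0 (46.4% of all genes), and -0.09 at 300 mM, with 2 above 0 (59.3%). There rpl-12 had the smallest p, at a log2 difference of -0.17 (SE 0.12, adjusted p = 0.962). With single libraries left out, the median of F1KO against F1het ranged from -0.11 to 0.06 at 50 mM and from -0.15 to -0.05 at 300 mM. In gcp100 against N2 the medians were -0.08 and -0.07 with 9 and 13 above 0 (33% and 43.1% of all genes). Without the libraries that stood apart, which left replicates 2 and 4 of gcp100 at 300 mM, the median there was -0.21 with 3 above 0 (all genes -0.02). In gcp109 against N2 they were -0.10 and 0.07 with 8 and 60 above 0 (59.1% and 60.6%). Under the 2 rescalings the last of these turned, to medians of -0.09 and -0.07 with 15 and 17 above 0, and F1KO against F1het at 50 mM had 42 and 32 above 0, with medians of 0.01 and -0.02. The groups did not overlap for 8 and 16 members in n4117 against WT (19.3% and 24.8% of all genes), for 0 and 6 in F1KO against F1het (5.5% and 13.6%) and for 0 members in the other 4 comparisons (0.249%, 0.151%, 1.51% and 4.39%).

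Whether the salt difference itself depended on genotype was tested as an interaction in limma, and 0 members and 0 genes of all passed in any of the 4 tests, where 1.16%, 2.39%, 1.22% and 3.18% of all genes had an unadjusted p under 0.05 (n4117 against WT, F1KO against F1het, gcp100 and gcp109 against N2). Above 0 were 29, 14, 39 and 75 of 78 members in the same order, where 61.4%, 59.7%, 47.4% and 57.8% of all genes were. Under the 2 rescalings these counts were 7 and 9, 3 and 3, 34 and 39, and 68 and 70. Without the libraries that stood apart they were 2 for gcp100 (median -0.12, all genes 0.03) and 78 for gcp109 (0.13, all genes 0.00). The count for gcp100 then rests on replicates 2 and 4 of gcp100 at 300 mM. For rpl-11.1 the interactions were 0.42 (SE 0.66) between n4117 and WT, 0.09 (SE 0.18) between F1KO and F1het and -0.98 (SE 1.02) between gcp100 and N2. Between gcp109 and N2 the interaction was -1.19 (SE 0.99), or 0.06 without the libraries that stood apart. The call in F1KO was therefore not shown to differ from F1het.

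The members varied between replicates of a group in a pattern that came back in separate groups. The within-group SD of log2(TPM + 1) had a median of 0.24 over the members but reached 1.13 for rpl-29, 0.88 for rpl-41, 0.66 for rpl-36 and 0.51 for rpl-25.2. In N2 at 50 mM rpl-29 was at 2482, 296.2, 1984, 1965 and 2208 TPM, and in gcp100 at 50 mM at 3336, 405.4, 1982, 3303 and 2572 TPM. In gcp109 it was at 2739, 2423, 475.2 and 341.9 TPM at 50 mM and at 2872, 3103, 311.6 and 310.1 TPM at 300 mM. Replicate 2 was thus the low one in both strains of that set, and replicates 3 and 4 in gcp109 at both salt levels.

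Genes of both subunits took part, some up and some down. Taking replicate 2 against the other replicates of its group, averaged over the 4 groups of N2 and gcp100, rpl-29 was at -2.63, rpl-41 at -1.83, rpl-36 at -1.51 and rpl-30 at -1.16 log2 units, while rps-16 was at 0.68, rps-19 at 0.53, rla-0 at 0.50 and rla-1 at 0.50. In all 4 groups 38 of 78 members were lower and 15 higher in replicate 2. Across the 78 members this profile had Pearson r = 0.946 with that of replicates 3 and 4 against 1 and 2 of gcp109, which shares no library with it. The same comparison over 7792 other protein-coding genes gave r = 0.750. Those genes had a mean of at least 10 TPM and were not matched to the members in level, so the 2 values of r are not directly comparable. Outside the members, W01D2.1, the RefSeq rpl-37.1, was at -3.74 and -4.18 in the 2 profiles. The contrast was picked after the values were seen and has no test.

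**Figure D5:**
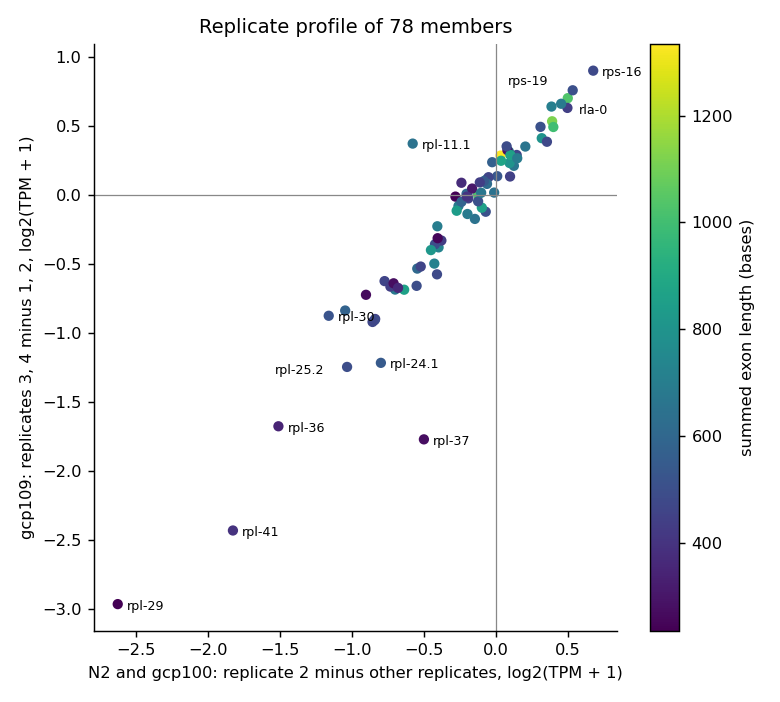
Each of 78 members by its log2(TPM + 1) in replicate 2 minus the other replicates, averaged over 4 groups of N2 and gcp100 (x axis), and in replicates 3 and 4 minus replicates 1 and 2, averaged over 2 groups of gcp109 (y axis), coloured by summed exon length. The points follow a diagonal from rpl-29 (-2.63 and -2.97) to rps-16 (0.68 and 0.90).

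Transcript length moved with this profile, and its part was not tested. The 7 members with at most 300 bases of summed exons had a median of -0.50 in replicate 2 of N2 and gcp100, the 27 members above 300 and up to 500 bases -0.38, the 27 above 500 and up to 700 bases -0.10 and the 4 above 1000 bases 0.21. Among other protein-coding genes with a mean of at least 10 TPM, the 51 shortest had a median of -0.80, the next 434 of -0.35 and the 5607 above 1000 bases of 0.01. Length did not order the members closely, since rps-16 with 480 bases and rps-19 with 504 were the highest and rpl-30 with 520 among the lowest. In gcp109 at 50 mM the replicates with this profile had more TPM on lines not typed as protein-coding, with 192869 and 204970 against 106276 and 127633, but at 300 mM replicate 4 held 129606 against 155716 in replicate 2.

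The other genes of translation gave a background for the members. Of 11 elongation and termination factors, 11 were above 0 by salt in WT, n4117 and F1KO, 9 in F1het and N2 and 10 in gcp109 and gcp100. In N2 the release factor genes erfa-1 and erfa-3 rose, with log2 differences of 1.04 (SE 0.15, limma adjusted p = 0.000536) and 0.90 (SE 0.18, adjusted p = 0.00886), and erfa-1 rose in gcp100 by 0.95 (adjusted p = 0.00541). The germline initiation factor 5A gene iff-1 rose in N2 by 3.27 (SE 0.90, adjusted p = 0.0456), or by 1.69 with no call (adjusted p = 0.0523) without the libraries that stood apart. Of 24 initiation factors tested, 24, 24, 20, 22, 22, 22 and 22 were above 0 in WT, n4117, F1het, F1KO, gcp109, N2 and gcp100, and 3 rose in N2: eif-3.C by 0.90, eif-3.H by 0.50 and inf-1, which encodes the eIF4A helicase, by 0.83. The count in N2 was 6 with an equal protein-coding total, 5 with median ratios and 6 without the libraries that stood apart. Calls over all genes in N2 were 325 up and 332 down of 15275 in the main fit. They were 509 and 305 of 15229 with an equal protein-coding total and 444 and 306 of 15209 with median ratios. Without the libraries that stood apart they were 623 and 553 of 14664. The calls of erfa-1, erfa-3 and eif-3.C held when any single library was left out, and those of eif-3.H and inf-1 did not.

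The mitochondrial ribosomal proteins, which serve the ribosome of the organelle, had medians of the opposite sign to the cytosolic ones in WT, n4117, F1het, F1KO and gcp109. Of 66 genes, 4 were above 0 in F1het and 12 in F1KO, with medians of -0.22 and -0.12 against 0.27 and 0.19 for the members. In WT, n4117 and gcp109 there were 16, 26 and 7, with medians of -0.11, -0.10 and -0.12 against 0.12, 0.11 and 0.04, where the members of n4117 turned below 0 under both rescalings. In gcp100 there were 18, with a median of -0.23. None was called there by limma, and 18 and 10 had an unadjusted p under 0.05 in F1het and F1KO, against 11.4% and 11.8% of all genes. Under the 2 rescalings 8 and 8 were above 0 in F1het and 9 and 10 in F1KO. In N2 the median was 0.03 with 34 above 0, and mrps-11 fell by 0.67 (adjusted p = 0.0377), a call that was lost when any 1 of 5 libraries was left out. Without the libraries that stood apart that median was -0.10. Of 24 ribosome biogenesis genes 0 were called by limma in any strain, with 21, 23, 12, 14, 13, 18 and 11 above 0 in the order WT, n4117, F1het, F1KO, gcp109, N2 and gcp100. At an unadjusted p under 0.05 were 1, 2, 1, 0, 2, 7 and 1 of them, against 9.31%, 12.2%, 11.4%, 11.8%, 14.9%, 24.4% and 13.1% of all genes. Under both rescalings dao-5 and nol-1 of this list were called in N2, beside the calls over all genes given above for these settings. Of 11 genes of growth signalling, aak-2, which encodes a catalytic subunit of the energy sensor AMPK, fell in N2 by 0.94 (adjusted p = 0.0113), and the remainder were not called in any strain.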

How the data were processed

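RNA of more than 200 nucleotides with an RNA integrity number above 8 was depleted of ribosomal RNA with RNase H and made into strand-specific libraries, per the labels' protocols. The authors deposited 1 table of TPM per gene, and the submitters' processing notes name the builds ce11 and WBcel235 and the tool bedtools; the aligner, the counting method and whether it used strand were not given in the sources used here. TPM keep no depth. The table holds 48 of 68 samples, with 0 columns left without a sample; the other 20 are not analysed here. Libraries of a group are labelled biological replicates with no separate cultures named, so p-values measure the spread between these samples.

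From 20693 of 30470 lines the values of N2 and gcp100 were moved back to their names. Positions and exon lengths came from WBcel235, and 28048 IDs had a symbol in the reference. Values of log2(TPM + 1) were fitted with limma 3.58.1 in R 4.3.3 (trended variance), 1 fit per set and 1 over gcp109, N2 and gcp100, on genes with at least 1 TPM in as many libraries as the smallest group. Benjamini-Hochberg adjustment covered all genes tested. Exact two-sided permutation tests for rpl-11.1 and rpl-11.2 used scipy 1.17.1. The fit was tested on simulated data with known changes. Named genes were rpl-11.1 and rpl-11.2, the 5 highest and 5 lowest members, paralogue pairs, rla genes, members with the smallest p or with the largest or smallest spread over groups, and up to 3 genes of each other list; those named for their spread between replicates or their share of a pair were chosen after their values were seen. The members and lists were chosen with earlier results of these data known. Alternatives were a pseudocount of 0.1, no filter, 2 rescalings with factors computed without the members, a replicate block and each library left out. A block within strain and a fit without 5 libraries were added after the data were seen. Same-numbered libraries deviated together in the salt comparison of gcp109 (r from 0.493 to 0.547) and in gcp100 against N2 at 50 mM (0.261 to 0.564). They did so only weakly in the salt comparisons of F1KO (0.173 to 0.246) and F1het (0.106 to 0.168).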

Additional observations from a re-analysis of the deposited data

Results flagged for a closer look

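In groups of 4 or 5 libraries, 8 levels stood apart from the rest of their group by the gap to the nearest library relative to the range, of 114 groups of values examined, where chance alone gives about 1 in 20. For rpl-11.1 these were gcp109 replicate 4 at 50 mM, at 77.1 TPM against 39.7 to 40.1 in the others, and gcp100 replicate 1 at 300 mM, at 953 TPM against 53.0 to 112. For rpl-25.1 it was gcp109 replicate 3 at 300 mM, low at 575 TPM against 952 to 1009. In gcp100 rpl-25.2 was low in replicate 2 at 300 mM, at 324 TPM against 554 to 642, and rpl-24.2 in replicate 2 at 50 mM, at 118 TPM against 236 to 282. In N2 at 50 mM rla-2 was high in replicate 3, at 853 TPM against 740 to 765. In the same group replicate 2 was low for rpl-29, at 296 TPM against 1965 to 2482, and high for rps-16, at 5202 TPM against 2438 to 3109.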

How the results depend on the processing

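Depth is unknown, which limits what can be said of low values. No interaction or genotype comparison gained or lost a call of rpl-11.1 or rpl-11.2 under any alternative run. A replicate block over a set called 54 up and 116 down of all genes in F1het and 74 and 154 in F1KO. In gcp109 it called 873 and 892, against 93 and 98 without a block. In N2 it called 520 and 634, and in gcp100 98 and 136. A block within strain called 19 and 65 genes in F1het, 342 and 336 in N2 and 24 and 29 in gcp100. With the replicate block, fitted over a set or within each strain, 1 member was called in F1het (rpl-11.1, 0.88), in gcp109 (rpl-11.1, 1.21), in gcp100 (rpl-29) and, within strain, in N2 (rpl-11.1, 2.40, adjusted p = 0.0379). Over the set the block called 2 in N2, rpl-11.1 (2.40, 0.0351) and rpl-11.2 (-0.56, 0.0498). The numbers were not taken to pair libraries in the salt comparisons of N2 (r from -0.012 to 0.250) and gcp100 (-0.0505 to 0.287), although replicate 2 stood apart in all 4 of their groups, nor in gcp100 against N2 at 300 mM, F1KO against F1het or the 2 pairs of WT and n4117. In F1KO 0 members were called with median ratios (rpl-11.1, 0.95), a pseudocount of 0.1 (0.99), the block within strain (0.98) and an equal protein-coding total (0.94); the last called 1 in N2 (2.47, adjusted p = 0.0443). Median ratios took the median of n4117 to -0.062 and rpl-11.2 in gcp109 to 0.0197.

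Without the 5 libraries that stood apart, rpl-11.2 changed sign in gcp100 against N2 at 300 mM (-0.24) and in that interaction (-0.13), as did rpl-25.1 (-0.0933), and rpl-11.1 in the gcp109 interaction (0.0574). Per 1000000 TPM of protein-coding nuclear genes, the members summed at 50 and 300 mM to 202781 and 210869 in WT, 224818 and 217563 in n4117, 254790 and 290442 in F1het, 256534 and 275095 in F1KO, 176634 and 180332 in gcp109, 192410 and 187124 in N2, and 190721 and 183337 in gcp100. The causes were not tested.

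With single libraries left out, 0 to 1 members were called in F1het, F1KO and N2. By salt, rpl-11.1 ranged from 0.81 to 1.00 in F1het, 0.88 to 1.06 in F1KO and 1.76 to 2.92 in N2, gaining a call without replicate 2 or 4 at 300 mM (adjusted p = 0.0428 and 0.0173), and rpl-11.2 from -0.10 to 0.13 in gcp109. For n4117 against WT at 300 mM rpl-11.1 ranged from -0.0621 to 1.53 and rpl-11.2 from -0.0144 to 0.20; for gcp100 against N2 at 50 mM they ranged from -0.24 to 0.12 and from -0.20 to 0.0118. For F1KO against F1het at 300 mM rpl-11.1 ranged from -0.0952 to 0.0204. The interactions of n4117 ranged from -0.38 to 1.22 for rpl-11.1, -0.12 to 0.10 for rpl-11.2 and -0.0596 to 0.71 for rps-2, and those of F1KO from -0.0237 to 0.17 and -0.0837 to 0.0432 for the first pair.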
